A study of Homo sapiens with 22 samples.

Results

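VEGFA, ADM, P4HA1, NDRG1 and ANKRD37 are 5 genes that cells are known to transcribe more when oxygen is short, and their levels were compared in 3 untreated human glioblastoma cell lines, SNU-466, AM-38 and A-172. The genes were chosen by name, with earlier results of these data known. All 5 had a row among the 5383 genes listed for these lines. None had a row among the 2221 genes listed for the other 8 lines, so levels there were not analysed here. The listed genes look chosen for a difference of SNU-466. By mean level SNU-466 was the highest line in all 5 genes, as in 2454 of 5371 listed genes with at least 10 reads. In 4 of the 5, AM-38 came next and A-172 last, an order that 19.0% of those 5371 genes followed. Among the 5 genes, the step of AM-38 over A-172 reached 2-fold only for VEGFA and NDRG1. For ADM it missed the p threshold of 0.05 (edgeR adjusted p = 0.054). For ANKRD37 it passed with edgeR (adjusted p = 0.0087) and missed with DESeq2 (adjusted p = 0.0574). For ADM and ANKRD37 the gap of SNU-466 over AM-38 depended on the scaling, with log2 fold changes of 0.01 and 0.22 when only listed reads were counted as the library. P4HA1 broke that order: it was lowest in AM-38, where it stood 1.56-fold below A-172.

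RNA was sequenced from 11 glioblastoma lines in all, with 2 libraries per line. The 3 lines carried no added transgene or agent in the labels. SNU-466 was grown in RPMI medium with 10% serum, AM-38 in EMEM with 20% serum and A-172 in DMEM with 10% serum, so line and medium cannot be told apart. The labels do not state the oxygen level or the cell density, and no hypoxic sample was available. Nor do they say if a line's libraries are 2 cultures or 1, so each p-value measures only how far those libraries differ, and that difference may be technical.

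When oxygen is plentiful, prolyl hydroxylases mark the alpha subunits of the hypoxia-inducible factors (HIF) for destruction through the VHL protein. When oxygen falls, HIF-1 alpha or HIF-2 alpha is stabilised, pairs with ARNT and binds short DNA elements near its target genes. The targets include secreted factors that call in blood vessels, enzymes of glycolysis, and enzymes that modify collagen. In glioblastoma this programme is known from the cells that border necrotic tumour areas. Several of its genes are also controlled by growth factors, stress and cell type, so a level in an untreated line is not a measure of oxygen.

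The core of the element that HIF binds can be written ACGTG or GCGTG. RefSeq promoters (GRCh38.p14, 250 bases before to 50 bases after the gene start) were used for 3 of the 5 genes, P4HA1, ADM and ANKRD37. No promoter of VEGFA was found, and NDRG1 was left out because sequences of its chromosome are not printed here. The windows are shown to let the 3 genes be compared at that element, since ADM and P4HA1 are the pair of the 5 least alike in line pattern. Whether a match has any part in a line pattern was not tested. In each 30-base window, capitals mark every match to either core on either strand.
P4HA1, chr10:73096936-73096965, minus strand: gtgtgatcgagctCACGTagcgagggctgc
ADM, chr11:10304959-10304988, plus strand: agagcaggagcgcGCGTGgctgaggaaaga
ANKRD37, chr4:185396676-185396705, plus strand: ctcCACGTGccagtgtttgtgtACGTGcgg
P4HA1 held 1 match in its 300 bases, ACGTG on the opposite strand, beginning 86 bases before the start. ADM held 1 match, GCGTG, beginning 101 bases before the start. ANKRD37 held 3 matches, beginning 162, 161 and 143 bases before the start, of which the first 2 overlap in the palindrome CACGTG. Each window also lies inside an exon of a longer GENCODE 29 transcript of its gene. Such matches are common: 21.4% of 35116 promoters of this length held ACGTG, 36.5% held GCGTG and 48.4% held either. Among the 5250 promoters of genes listed for the 3 lines, 52.8% held either core. A match is a description of the letters and not a binding site.

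Levels are given as CPM, the reads of a gene per 1000000 reads of its library. The 6 libraries held 16958669 to 21213215 reads. Within a line, 86.3% to 88.0% of the 5035 tested genes agreed between the 2 libraries within 1.5-fold, with 2 reads added to each count. Listed genes with too few reads to be tested were left out of these shares. A gene was called higher or lower where the adjusted p was under 0.05 and the fold change was 2 or more (edgeR quasi-likelihood test, 5035 genes). The genes listed for these lines look chosen for a difference of SNU-466: 93.9% had a mean FPKM in SNU-466 that was 2-fold or more above or below the mean of the other lines, against 69.5% for AM-38 and 62.4% for A-172. Set against that mean, SNU-466 stood 12.7-fold higher for P4HA1, 5.92-fold for NDRG1, 3.88-fold for VEGFA and 2.51-fold for ANKRD37, while ADM, at 1.88-fold, was one of the 326 listed genes under 2-fold. Differences of SNU-466 are therefore given as descriptions of listed genes, with their background beside them. The comparison of AM-38 with A-172 does not use that split, but it covers the same listed genes. Of 5371 genes with at least 10 reads over the 6 libraries, SNU-466 lay between the other lines in only 21 and 40, by the 2 possible orders. What this does to differences between AM-38 and A-172 was not tested. The 3 comparisons share libraries and are not independent of each other.

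VEGFA encodes vascular endothelial growth factor A, the secreted protein that drives blood vessel growth. It was measured at 313 and 311 CPM in SNU-466, at 112 and 107 CPM in AM-38, and at 47.8 and 53.9 CPM in A-172. The 3 lines were far apart and no libraries overlapped. VEGFA was 2.84-fold higher in SNU-466 than in AM-38 (log2 fold change 1.51, SE 0.05, edgeR adjusted p = 3.2e-43). It was 6.13-fold higher in SNU-466 than in A-172 (log2 fold change 2.62, SE 0.06, edgeR adjusted p = 3.5e-58). AM-38 was in turn 2.16-fold above A-172 (log2 fold change 1.11, SE 0.06, edgeR adjusted p = 1.6e-30). The call of SNU-466 over AM-38 was lost at a log2 fold change of 0.99 with RLE scaling and at 0.75 when only listed reads were counted as the library.

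ADM encodes adrenomedullin, a secreted peptide that widens vessels and acts on vessel walls. It had few reads, at 14.5 and 16.04 CPM in SNU-466 (246 and 315 reads), 10.2 and 7.73 CPM in AM-38 (216 and 154 reads), and 7.33 and 7.24 CPM in A-172 (143 and 146 reads). SNU-466 lay above both other lines without overlap, whereas the lower AM-38 library came close to A-172. ADM was 1.70-fold higher in SNU-466 than in AM-38, short of the 2-fold limit (log2 fold change 0.77, SE 0.13, edgeR adjusted p = 1.0e-07). This difference was lost at a log2 fold change of 0.25 with RLE scaling (edgeR adjusted p = 0.056) and 0.01 when only listed reads were counted as the library (edgeR adjusted p = 0.933, the highest over the alternatives). It was 2.10-fold higher in SNU-466 than in A-172 and was called (log2 fold change 1.07, SE 0.14, edgeR adjusted p = 2.1e-11). That call rests on the limit: the log2 fold change was 0.99 without SNU-466 replicate 2, 0.97 with TMM scaling, 0.76 with RLE scaling and 0.31 when only listed reads were counted as the library. AM-38 and A-172, at means of 8.96 ± 1.73 and 7.28 ± 0.0604 CPM (SD, n = 2 each), differed by a log2 fold change of 0.30 that missed the threshold (SE 0.15, edgeR adjusted p = 0.054). Whether the p passed depended on the processing: over the alternatives the adjusted p ran from 0.000677 with RLE scaling (log2 fold change 0.51) to 0.707 without AM-38 replicate 1 (0.09), and it was 0.0218 with TMM scaling, 0.0496 with no filter and 0.00794 without AM-38 replicate 2 (0.48).

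P4HA1 encodes the catalytic alpha subunit of collagen prolyl 4-hydroxylase, which hydroxylates prolines so that the collagen triple helix is stable. It was measured in SNU-466 at 756 and 769 CPM, against 47.6 and 46.3 CPM in AM-38 and 72.1 and 74.4 CPM in A-172. Libraries of a line lay close together, and both AM-38 libraries were below both A-172 libraries. P4HA1 was 16.2-fold higher in SNU-466 than in AM-38 (log2 fold change 4.02, SE 0.05, edgeR adjusted p = 4.7e-75), which was the widest gap of that pair among the 5 genes. It was 10.4-fold higher in SNU-466 than in A-172 (log2 fold change 3.38, SE 0.05, edgeR adjusted p = 1.1e-70). Between the other lines its sign was opposite to that of the other 4 genes: AM-38 was below A-172 by a log2 fold change of -0.64 (SE 0.06, edgeR adjusted p = 4.5e-18), a difference past the p threshold but under 2-fold. The value lay between -0.67 and -0.62 whichever library was left out, and it was -0.44 with RLE scaling.

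NDRG1 encodes a cytoplasmic protein of stress and differentiation responses, known as a strongly hypoxia-induced gene. It was measured at 402 and 426 CPM in SNU-466, 117 and 114 CPM in AM-38, and 25.6 and 23.2 CPM in A-172. Of the 5 genes it had the widest gap between SNU-466 and A-172, and its lines did not overlap. NDRG1 was 3.58-fold higher in SNU-466 than in AM-38 (log2 fold change 1.84, SE 0.05, edgeR adjusted p = 1.7e-50). It was 17.0-fold higher in SNU-466 than in A-172 (log2 fold change 4.09, SE 0.06, edgeR adjusted p = 1.7e-70). AM-38 was 4.74-fold above A-172 (log2 fold change 2.25, SE 0.06, edgeR adjusted p = 1.7e-49), the largest rise of AM-38 over A-172 among the 5.

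ANKRD37 encodes a small ankyrin-repeat protein and is a known HIF-1 target. It had few reads, at 4.78 and 5.19 CPM in SNU-466 (81 and 102 reads), 2.59 and 2.46 CPM in AM-38 (55 and 49 reads), and 1.13 and 1.79 CPM in A-172 (22 and 36 reads). The lines did not overlap, but the A-172 libraries differed from each other by more than those of the other lines did. ANKRD37 was 1.97-fold higher in SNU-466 than in AM-38, just under the limit (log2 fold change 0.98, SE 0.22, edgeR adjusted p = 3.7e-05). This difference was 0.46 with RLE scaling (edgeR adjusted p = 0.0434) and was lost at 0.22 when only listed reads were counted as the library (edgeR adjusted p = 0.323, the highest over the alternatives). It was 3.41-fold higher in SNU-466 than in A-172 (log2 fold change 1.77, SE 0.25, edgeR adjusted p = 7.8e-10). AM-38 was 1.73-fold above A-172 and was not called (log2 fold change 0.79, SE 0.28, edgeR adjusted p = 0.0087). With DESeq2 this difference also missed the p threshold (DESeq2 adjusted p = 0.0574). Single libraries also decided calls: the log2 fold change of AM-38 over A-172 was 1.16, and called, without A-172 replicate 2 and 0.50 without A-172 replicate 1, and that of SNU-466 over AM-38 was 1.02 without AM-38 replicate 1 and 1.04 without SNU-466 replicate 1, both called. The 3′ end of ANKRD37 overlaps UFSP2, a gene on the other strand (chr4:185399540-185400628), and no label gives the strand setting of the counting, so reads of UFSP2 may be among those counted.

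**Figure D1:**
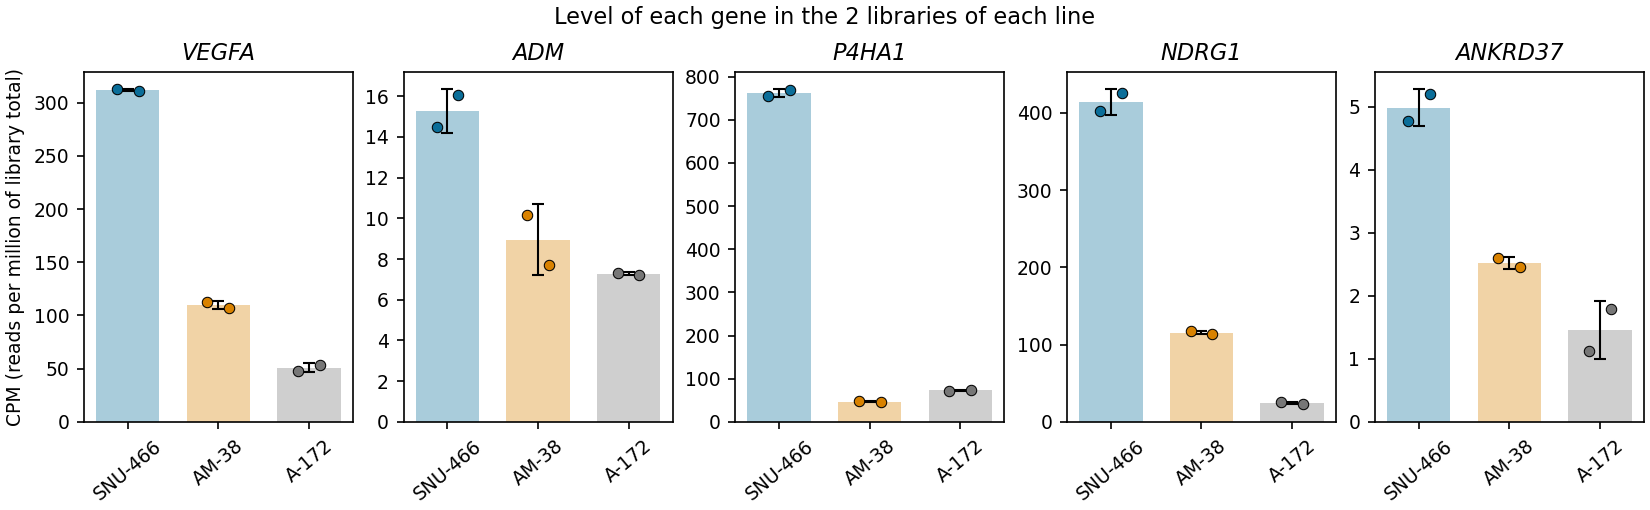
Level of each gene in CPM (linear axis from 0, a separate scale per gene) for SNU-466, AM-38 and A-172. Bars are means of the 2 libraries, error bars are SD, and points are the libraries. SNU-466 is the highest line in every panel, and P4HA1 is the one gene in which AM-38, at 46.9 CPM, lies below A-172, at 73.3 CPM.

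Of the 5 genes, 3 were called higher in SNU-466 than in AM-38, where 40.1% of all 5035 tested genes were called higher and 51.6% lower. All 5 were called higher in SNU-466 than in A-172, where 34.8% of all tested genes were called higher and 49.9% lower. In AM-38 over A-172, 2 of 5 were called higher, NDRG1 and VEGFA, against 24.5% of all tested genes, and none was called lower, against 24.1%. Whatever the fold, 3 of the 5 passed the adjusted p in AM-38 over A-172 as higher, against 36.1% of all tested genes. P4HA1 passed it as lower, against 39.0%. Of the 3, ANKRD37 missed it with DESeq2 (DESeq2 adjusted p = 0.0574). The median log2 fold change of the 5 genes was 1.51 for SNU-466 over AM-38, 2.62 for SNU-466 over A-172 and 0.79 for AM-38 over A-172. Over all tested genes the medians were -1.23, -1.28 and -0.05. The 5 genes thus lay on the higher side of a table in which most genes were lower in SNU-466. They were chosen with earlier results of these data known, so this describes the 5 genes and tests nothing.

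**Figure D2:**
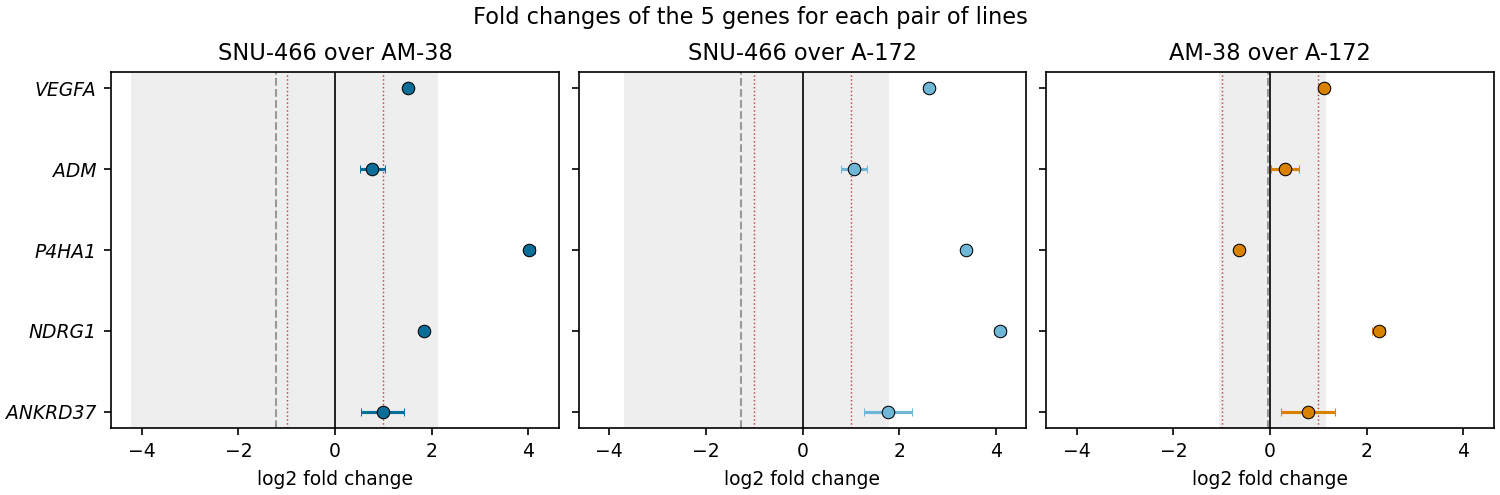
Log2 fold change of the 5 genes for each pair of lines, with bars of 2 standard errors either way. The grey band runs from the lower to the upper quartile of all 5035 tested genes, the dashed line their median, and the dotted lines mark 2-fold. All points are right of 0 except P4HA1 in AM-38 over A-172, at -0.64.

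Neither order was rare in the table. Of 5371 genes with at least 10 reads over the 6 libraries, 19.0% followed the order SNU-466, AM-38, A-172 from high to low by mean CPM, and 26.6% followed the order of P4HA1, SNU-466, A-172, AM-38. The share that P4HA1 held of the summed CPM of the 5 genes, compared between lines and not between genes, was lowest in AM-38: 50.7% and 50.3% in the SNU-466 libraries, 16.4% and 16.7% in the AM-38 libraries, and 46.8% and 46.4% in the A-172 libraries. The sums themselves were 1490 and 1527 CPM in SNU-466, 290 and 278 CPM in AM-38, and 154 and 161 CPM in A-172. AM-38 thus had the higher sum of the other lines, but with the smallest share of P4HA1.

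Per length, the levels between genes were compared as FPKM, reads scaled to gene length and library total. In SNU-466 the mean FPKM was 246 for P4HA1, 34.5 for NDRG1, 21.6 for VEGFA, 6.57 for ADM and 2.22 for ANKRD37. In AM-38 it was 15.2 for P4HA1, 9.63 for NDRG1, 7.61 for VEGFA, 3.85 for ADM and 1.12 for ANKRD37. In A-172 it was 23.7 for P4HA1, 3.53 for VEGFA, 3.13 for ADM, 2.03 for NDRG1 and 0.645 for ANKRD37. P4HA1 was thus first in each line and ANKRD37 last. The deposited length of VEGFA, 14431 bases, and that of NDRG1, 12002 bases, exceed the longest coding transcripts, 3535 and 3755 bases. On the longest coding transcript, an alternative chosen after the data were seen, AM-38 had 31.1 FPKM of VEGFA, 30.8 of NDRG1 and 16.5 of P4HA1, so that P4HA1 lay below both there, while it stayed first in SNU-466 at 268 FPKM and in A-172 at 25.8 FPKM. In A-172 NDRG1, at 6.49 FPKM, then lay above ADM, at 3.85 FPKM.

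The 5 genes lie on different chromosomes. On GRCh38, VEGFA spans chr6:43770184-43786487 (plus strand), ADM chr11:10304680-10307397 (plus), P4HA1 chr10:73007217-73096974 (minus), NDRG1 chr8:133237171-133302022 (minus) and ANKRD37 chr4:185396021-185400628 (plus). VEGFA and P4HA1 overlap unnamed genes on the opposite strand, AL136131.3 for VEGFA, and AL731563.1 and AL731563.2 for P4HA1. None of these overlapping genes, UFSP2 included, had a row for the 3 lines.

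Likeness of pattern was measured as the root mean square difference of line means in log2 CPM, centred per gene, over 3 lines only, among 2928 or 2929 genes with at least 10 CPM in a line. Nearest to VEGFA were MERTK (difference 0.01), PGRMC1 (0.06) and TLN2 (0.07). P4HA1 was nearest to TAMALIN (0.07), RDH10 (0.08) and NLGN3 (0.10). For NDRG1 they were ACTA2 (0.05), CTSC (0.07) and NALCN (0.09). ADM was nearest to GPCPD1 (0.01), ADO (0.01) and SEC24D (0.02), and ANKRD37 to SLC12A2 (0.02), APLP2 (0.02) and OXR1 (0.05). Patterns over 3 lines are easily matched: 221 genes lay within 0.25 of ADM, 119 of ANKRD37, 54 of VEGFA, 16 of P4HA1 and 14 of NDRG1. No other member of the 5 was within 0.25 of any. The closest pair was ADM and ANKRD37, at 0.29, and the farthest was ADM and P4HA1, at 1.36.

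Of 97 other genes of the oxygen response in the lists used here, 38 had a row for the 3 lines. In SNU-466 over AM-38, 22 were called higher and 13 lower, with a median log2 fold change of 1.36, where 40.1% of all tested genes were called higher and 51.6% lower. In SNU-466 over A-172, 18 were called higher and 14 lower, with a median of 0.89, where all tested genes gave 34.8% and 49.9%. In AM-38 over A-172, 7 were called higher and 12 lower, with a median of -0.11, where all tested genes gave 24.5% and 24.1%. By CPM, SNU-466 was highest in 24 of the 38 and lowest in 14, against highest in 2454 and lowest in 2856 of 5371 genes. When only listed reads were counted as the library, SNU-466 was highest in 19 of the 38. How many of all genes were highest in SNU-466 by that scaling was not counted. Of the 24, 15 had the order of P4HA1, with A-172 above AM-38, and in 8 of these AM-38 was called lower than A-172 (EPAS1, FLT1, IGFBP3, NDRG4, PFKL, PLOD3, PPFIA4 and TFRC). The other 9 had the order of VEGFA and NDRG1 by their means or, for RAMP2, equal values of 0 in AM-38 and A-172, and in 1 of these, ALDOC, AM-38 was called higher than A-172. Of the 2454 genes highest in SNU-466, 1431 had the order of P4HA1 and 1023 that of VEGFA and NDRG1, so a majority for the first is usual here. How many of those 2454 were called apart between AM-38 and A-172 was not counted.

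**Figure D3:**
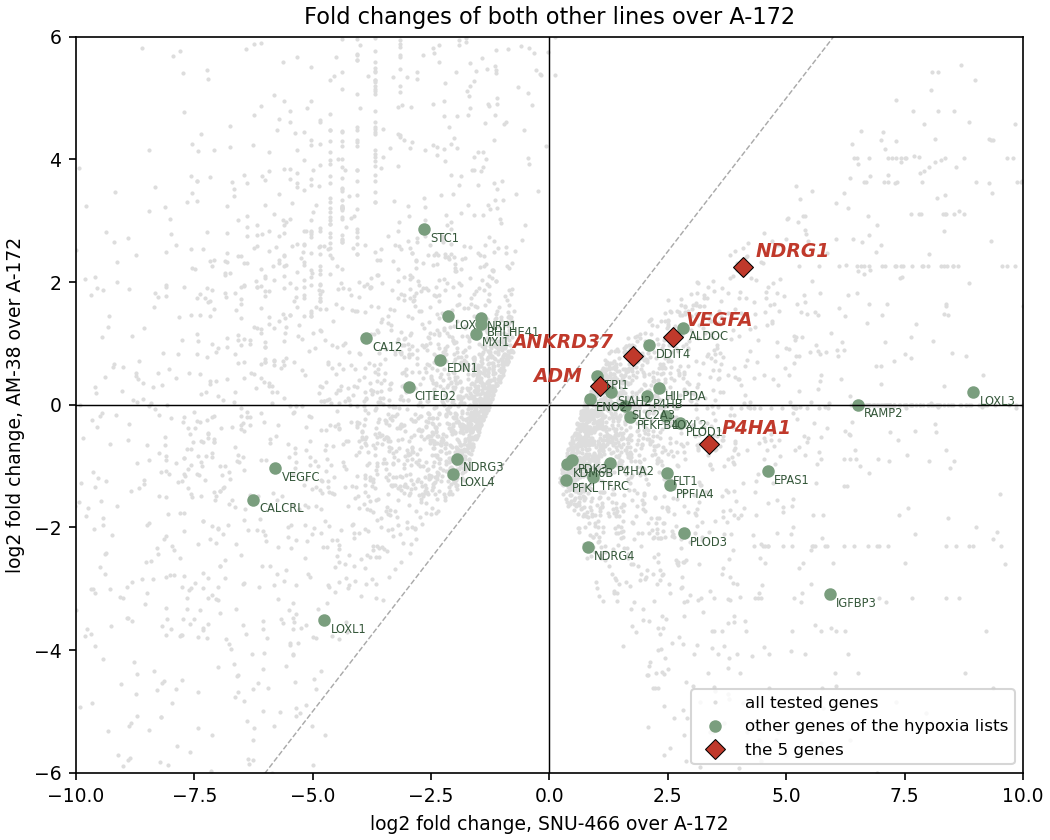
Log2 fold change of SNU-466 over A-172 (horizontal) and AM-38 over A-172 (vertical), for all tested genes within the axes (grey), the other genes of the hypoxia lists (green) and the 5 genes (red). Both axes share the A-172 libraries, so no relation is read from the plot, and few points lie near the vertical axis, as in SNU-466 93.9% of listed genes were at least 2-fold from the mean of the other lines. P4HA1 lies below the horizontal line and the other 4 above it.

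Oxygen sensing itself was covered by 3 of 13 listed genes. EPAS1, which encodes HIF-2 alpha, averaged 876 ± 6.82 CPM in SNU-466, 16.9 ± 0.233 CPM in AM-38 and 35.7 ± 1.42 CPM in A-172 (SD, n = 2 each). It was 52.0-fold higher in SNU-466 than in AM-38 (log2 fold change 5.70, SE 0.06, edgeR adjusted p = 2.8e-82) and 24.5-fold higher than in A-172. Its line order was that of P4HA1, with AM-38 2.12-fold below A-172. CITED2, a HIF target whose protein competes with HIF for its coactivator, ran the other way, at 19.2 CPM in SNU-466, 184 CPM in AM-38 and 151 CPM in A-172. SIAH2, a ubiquitin ligase that acts on the prolyl hydroxylases, averaged 58.1 CPM in SNU-466, 27.3 CPM in AM-38 and 23.7 CPM in A-172, and was called higher in SNU-466 than in each other line.

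Among the secreted factors of blood vessel growth, VEGFA and ADM stood apart from the other listed members. Of 6 listed genes with a row, 4 were called lower in SNU-466 than in AM-38 and the same 4 lower than in A-172, where 51.6% and 49.9% of all tested genes were called lower. VEGFC, a growth factor for lymphatic vessels, averaged 1.64 CPM in SNU-466, 44.5 CPM in AM-38 and 90.9 CPM in A-172. The hormone gene STC1 averaged 4.31 CPM in SNU-466, 198 CPM in AM-38 and 27.3 CPM in A-172. EDN1, the precursor of endothelin 1, averaged 3.77 CPM in SNU-466, 30.7 CPM in AM-38 and 18.5 CPM in A-172. STC1 and EDN1 were thus highest in AM-38, and of these STC1 was called higher in AM-38 than in A-172, 7.25-fold.

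Receptors for the secreted proteins were split, with 2 of the 4 listed genes called higher and 2 lower in SNU-466 than in each other line. That is near the shares over all tested genes, 40.1% higher and 51.6% lower against AM-38, and 34.8% and 49.9% against A-172. FLT1, a VEGF receptor, averaged 21.6 CPM in SNU-466, 1.79 CPM in AM-38 and 3.89 CPM in A-172. NRP1, a co-receptor for VEGF, averaged 102 CPM in SNU-466, 742 CPM in AM-38 and 278 CPM in A-172. The adrenomedullin receptor consists of CALCRL and a RAMP protein. CALCRL had 1 read in the SNU-466 libraries together, while it averaged 0.875 CPM in AM-38 and 2.56 CPM in A-172. RAMP2 had 10 and 11 reads in SNU-466 and none in AM-38 or A-172, which makes it at least 7.88-fold higher than in AM-38 and at least 7.61-fold higher than in A-172, taking 3 reads over the 2 libraries as the floor.

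P4HA1 belongs to the enzymes that hydroxylate and cross-link collagen, of which 10 of 13 listed genes had a row. With P4HA1 counted, 7 of the 10 were called higher in SNU-466 than in AM-38 and 2 lower. Against A-172, 7 were called higher in SNU-466 and 3 lower. Over all tested genes 40.1% were called higher and 51.6% lower against AM-38, and 34.8% higher and 49.9% lower against A-172. P4HB, the beta subunit that joins P4HA1 in the enzyme, averaged 3414 ± 94.6 CPM in SNU-466, 903 ± 26.3 CPM in AM-38 and 818 ± 21.8 CPM in A-172 (SD, n = 2 each). P4HA2, an alternative alpha subunit, had the line order of P4HA1, at 219 CPM in SNU-466, 46.7 CPM in AM-38 and 89.6 CPM in A-172. PLOD3, a lysyl hydroxylase, did so too, at 1166 CPM in SNU-466, 38.1 CPM in AM-38 and 163 CPM in A-172, as did its relative PLOD1, at 822 CPM in SNU-466, 98.7 CPM in AM-38 and 122 CPM in A-172. By mean level AM-38 was thus the lowest line for the alpha subunits and lysyl hydroxylases with a row, but of these only PLOD3 was called lower in AM-38 than in A-172, and PLOD1 was 1.23-fold lower. P4HB was 1.10-fold higher in AM-38 than in A-172.

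The lysyl oxidases, which cross-link collagen outside the cell, did not move together. LOXL3 averaged 1237 CPM in SNU-466, 2.86 CPM in AM-38 and 2.49 CPM in A-172, a 430-fold difference of SNU-466 over AM-38. LOXL2 averaged 4593 CPM in SNU-466, 735 CPM in AM-38 and 837 CPM in A-172. Of the opposite sign, LOX, a known HIF target, averaged 21.8 CPM in SNU-466, 261 CPM in AM-38 and 95.8 CPM in A-172. LOXL1 averaged 6.07 CPM in SNU-466, 14.3 CPM in AM-38 and 163 CPM in A-172. LOXL4, at 9.58 CPM in SNU-466 and 39.1 CPM in A-172, was called lower in SNU-466 than in A-172 and, at 17.9 CPM in AM-38, was not called against AM-38.

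Glucose metabolism had 7 of 24 listed genes with a row, and all 7 were highest in SNU-466 by CPM, as were 2454 of 5371 listed genes. When only listed reads were counted as the library, 3 of the 7 were highest in SNU-466, and ENO2, PDK3, PFKL and TPI1 were not. The share over all genes by that scaling was not counted. Of the 7, 5 were called higher than in AM-38, against 40.1% of all tested genes, and 4 higher than in A-172, against 34.8%. ALDOC, the brain form of aldolase, had the order of VEGFA and NDRG1, at 91.3 CPM in SNU-466, 31.0 CPM in AM-38 and 12.9 CPM in A-172. PFKFB4, which makes the activator of phosphofructokinase, averaged 51.1 CPM in SNU-466, 13.7 CPM in AM-38 and 15.6 CPM in A-172. The neuronal glucose transporter gene SLC2A3 averaged 128 CPM in SNU-466, 42.1 CPM in AM-38 and 42.7 CPM in A-172. PFKL, a phosphofructokinase subunit, had the order of P4HA1, at 164 CPM in SNU-466, 55.2 CPM in AM-38 and 129 CPM in A-172. Smaller differences, under 2-fold, were seen for ENO2, at 101 CPM in SNU-466, 60.0 CPM in AM-38 and 55.9 CPM in A-172, and for TPI1 against AM-38.

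NDRG1 and ANKRD37 belong to a list of stress and survival targets, of which 9 of 18 genes had a row. With these 2 genes counted, 6 of the 9 were called higher and 2 lower in SNU-466 than in AM-38, and 6 were called higher and 2 lower in SNU-466 than in A-172. The shares over all tested genes were 40.1% higher and 51.6% lower against AM-38, and 34.8% higher and 49.9% lower against A-172. DDIT4, an inhibitor of mTOR signalling, had the common order, at 73.0 CPM in SNU-466, 33.1 CPM in AM-38 and 16.9 CPM in A-172. HILPDA, a lipid droplet protein, averaged 33.4 CPM in SNU-466, 8.22 CPM in AM-38 and 6.77 CPM in A-172. IGFBP3, which binds insulin-like growth factors, averaged 2059 CPM in SNU-466, 3.96 CPM in AM-38 and 33.8 CPM in A-172, in the order of P4HA1. The 2 lower genes encode transcription repressors: MXI1 averaged 6.81 CPM in SNU-466, 44.6 CPM in AM-38 and 19.9 CPM in A-172, and BHLHE41 averaged 2.98 CPM in SNU-466, 20.4 CPM in AM-38 and 8.16 CPM in A-172. CA12, a carbonic anhydrase and the single pH gene with a row, was also lower in SNU-466, at 0.186 CPM against 6.15 CPM in AM-38 and 2.90 CPM in A-172.

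The relatives of NDRG1 did not share its order. NDRG3 averaged 32.5 CPM in SNU-466, 68.3 CPM in AM-38 and 125 CPM in A-172, and was called lower in SNU-466 than in both. NDRG4 averaged 90.2 CPM in SNU-466, 10.3 CPM in AM-38 and 51.6 CPM in A-172. It was called higher in SNU-466 than in AM-38, 8.75-fold, and AM-38 was called lower than A-172, 5.01-fold. Of the 3 genes of the 4 in this family that had a row, NDRG1 alone was higher in AM-38 than in A-172. KDM6B, the 1 of 5 listed histone demethylase genes with a row, averaged 48.7 CPM in SNU-466, 19.3 CPM in AM-38 and 37.9 CPM in A-172, and was called higher in SNU-466 than in AM-38.

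**Figure D4:**
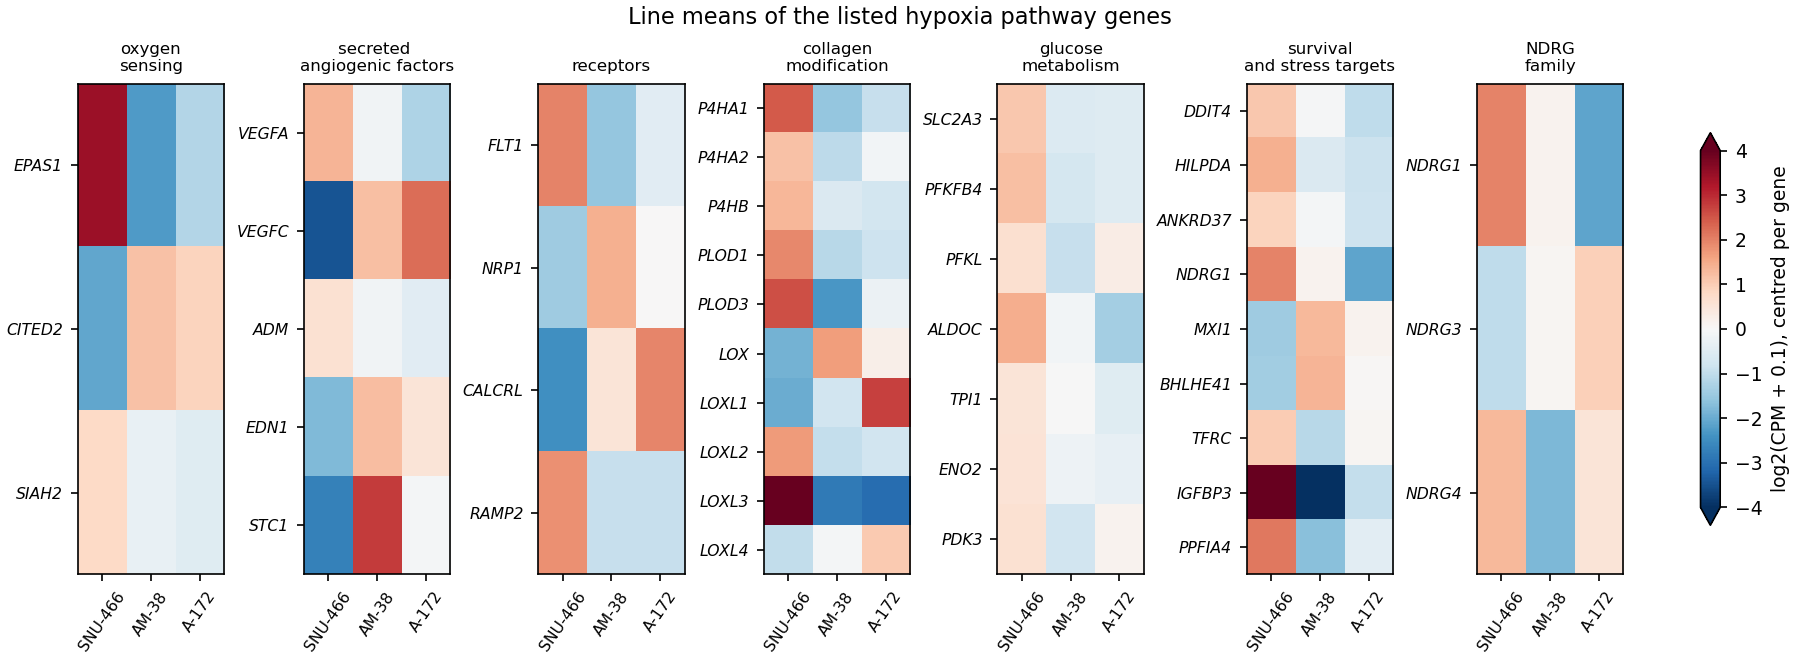
Line means of the listed genes, as log2 of CPM plus 0.1, centred per gene, with SNU-466, AM-38 and A-172 from left to right; red is above the mean of the 3 lines and blue below it, and colours saturate at 4. By CPM, SNU-466 is red in all 7 glucose genes and blue in 3 of the 5 secreted factors drawn. Of the 7, 3 are highest in SNU-466 when only listed reads are counted as the library. The share over all genes by that scaling was not counted.

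The labels call all 3 lines glioblastoma. Of 6 glial and neural stem markers, 3 had a row (GFAP, S100B and NES). Their summed level was 2235 to 2241 CPM in SNU-466, 135 to 137 CPM in AM-38 and 324 to 335 CPM in A-172. S100B made up most of it in SNU-466, at 1731 CPM, against 1.47 CPM in AM-38 and 0.0496 CPM in A-172. GFAP, the defining astrocyte filament, averaged 38.3 CPM in SNU-466 but 0.314 CPM in AM-38 and 1.36 CPM in A-172, so it was near 0 in both. KRT8 and KRT18, the epithelial keratins with a row (2 of 5 markers), summed to 0.413 to 0.611 CPM in SNU-466, 281 to 304 CPM in AM-38 and 1918 to 1997 CPM in A-172. Immune markers (PTPRC and ITGAM, 2 of 5) reached at most 0.0590 CPM in SNU-466, 0.471 CPM in AM-38 and 4.96 CPM in A-172, and endothelial markers (PECAM1 and CDH5, 2 of 4) at most 0.0509 CPM in SNU-466, 6.84 CPM in AM-38 and 3.28 CPM in A-172. ITGAM and CDH5 had 0 reads in SNU-466, which allows up to 3 reads, or 0.153 to 0.177 CPM per library. NES averaged 469 CPM in SNU-466, 134 CPM in AM-38 and 328 CPM in A-172. S100B was called higher in AM-38 than in A-172, but its estimate of 25.8-fold rests on 0 and 2 reads in A-172. The glial sum had the line order of P4HA1, which between AM-38 and A-172 is that of NES and not that of S100B. The keratin sum had the reverse of the order of the other 4 genes. Their part in the results was not tested. In bulk RNA, fewer cells of a kind and less RNA per cell cannot be told apart.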

How the data were processed

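RNA-seq libraries were made from poly(A) RNA and are strand-specific, per the labels' protocols. The deposited tables, of 5383 genes in 3 lines and of 2221 genes in 8 lines, give raw read counts, FPKM and the length of each gene, as the authors made them. Per the submitters' processing notes, the tools were HISAT2 2.2.1, StringTie 1.3.3, HTSeq 0.6.0, FastQC 0.10.1 and cutadapt 1.9.1 on hg38/GRCh38, without their roles. How the listed genes were chosen is not stated.

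Library totals were worked back from the counts, lengths and FPKM of genes that reached 20 FPKM and 200 reads. Within a library the totals so obtained differed by at most 0.0241%, and at least 99.98% of genes gave back the deposited FPKM within 0.01. Listed genes held 37.1% of each SNU-466 library and 21.8% to 22.0% of each AM-38 or A-172 library. These totals scaled the CPM and entered edgeR 4.0.16 (R 4.3.3) as library sizes, with 1 coefficient per line, the filter of edgeR on low counts and Benjamini-Hochberg adjustment over 5035 genes. The procedure was checked on simulated counts. Gene names matched for 5382 of 5383 genes, and coordinates are from GENCODE 29. At a count of 0 the limit is 3 reads, or 0.141 to 0.177 CPM per library and covers counting error only.

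The members and gene lists were chosen with earlier results of these data known. From each list, at most the 4 called genes with the largest change per comparison were named, with any called against the list's most frequent direction, and for each member the 3 genes nearest in pattern. ENO2, PDK3, P4HB, P4HA2, PLOD1, LOXL2, DDIT4 and TFRC fall outside that rule and were named after their values were seen. The counts of the lists include 1 gene that is not reported here. No member had a row in the 8-line table, so its planned tests were not made. Alternatives were TMM and RLE scaling, sums of listed reads as library sizes, no filter, DESeq2 1.42.0, limma 3.58.1 on log2 CPM, a replicate block, and leaving out each library. The order of lines in the gene lists by sums of listed reads was added after the data were seen.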

Additional observations from a re-analysis of the deposited data

How the results depend on the processing

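Over the 15 values of the 5 genes and all alternatives run, no direction changed, and 186 recomputed values kept their side of the threshold while 6 lost the call and 3 gained it. The log2 fold change of ADM in SNU-466 over A-172 lost its call with TMM factors (0.97), RLE factors (0.76) and sums of the listed genes as library sizes (0.31), and ranged over 0.99 to 1.14 when single libraries were left out. In SNU-466 over AM-38, sums of the listed genes gave 0.01 for ADM and 0.22 for ANKRD37, neither past the adjusted p. VEGFA in SNU-466 over AM-38 lost its call with RLE factors (0.99) and sums of the listed genes (0.75). ANKRD37 gained a call when a library was left out, with ranges of 0.50 to 1.16 in AM-38 over A-172 and 0.92 to 1.04 in SNU-466 over AM-38. ADM in AM-38 over A-172 had a range of 0.09 to 0.48 when single libraries were left out and was 0.51 with RLE factors. The cause of these changes was not tested, except that scaling shifts all genes. In SNU-466 over AM-38, sums of the listed genes moved the median of all genes by -0.76 and RLE factors by -0.52. Listed genes held 37.1% of each SNU-466 library and 21.8% to 22.0% of each AM-38 or A-172 library. Counting only listed reads as the library therefore lowers every gene in SNU-466 against the other lines. With sums of the listed genes, genes called higher numbered 1343 in SNU-466 over AM-38, against 2020, and 1147 in SNU-466 over A-172, against 1754, and pathway genes called higher numbered 14 in SNU-466 over AM-38, against 22. The share of calls that were higher was then 32.8% and 29.96%, against 43.7% and 41.1%. With RLE factors 7 pathway genes were called lower in AM-38 over A-172, against 12. On the longest coding transcript the order of genes per length changed in AM-38 and A-172. Libraries with the same replicate number showed no common shift: their deviations from the line means correlated across 5035 genes at -0.02 to 0.02. That does not show if they shared a preparation or run. With the replicate block, 2019 genes were called higher in SNU-466 over AM-38, 1746 in SNU-466 over A-172 and 1215 in AM-38 over A-172, and no call of the 5 genes changed. Low counts limit ANKRD37 and ADM, whose standard errors were the largest of the 5.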
